A study of Sus scrofa with 22 samples.

Results

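The comparison was between Pietrain and Large White pigs within thick subcutaneous fat, and it used 8 of the 22 small RNA libraries of the series. Its members were the 4 libraries labelled Pietrain with thick fat and the 4 labelled Large White with thick fat. They were taken by their labelled breed and fat class, with no library labelled thin fat among them. The fat class label of 1 Large White library is in question, as described below. All 8 samples are labelled female and of 6 months, and the labels name no treatment. Each library is listed as a sample of its own, but nothing states that each came from another animal, so p-values measure only the spread between these samples, which may in part be technical. Libraries are numbered 1 to 4 within a breed in the order of their sample records, so equal numbers pair nothing. The series as a whole sequenced miRNAs of subcutaneous fat classed as thick or thin in these breeds and in Hampshire pigs, and its stated subject was fatness. The labels give no fat depth in millimetres, no carcass weight and no preparation or sequencing batch. The reads of each breed were deposited in a table of their own, so breed and any difference in handling between the tables cannot be told apart. The tissue is bulk fat, in which fewer cells of a type and less RNA per cell cannot be told apart.

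A miRNA is a short RNA that guides an Argonaute protein to messenger RNAs, which are then degraded or translated less. Targets are found mainly by pairing to the seed, the stretch from base 2 to base 8 counted from the 5′ end, so miRNAs that share a seed share many targets. In fat, miRNAs of the adipocytes themselves, among them miR-148a, sit beside those of vessels, stroma, blood and immune cells.

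The sequences below are those that held the most reads of their name over the 8 libraries, and they are shown because the breed comparison is described through these miRNAs: the 4 with an unadjusted p under 0.05, miR-504, whose groups did not overlap, miR-17-5p and miR-339-5p, each sharing a seed with 1 of the 4, and miR-486 of red blood cells. They were read from the deposited tables, and the capitals mark the seed. The leading sequences of miR-20a and miR-17-5p share their seed and differ by U1C and U12C, and those of miR-4334-3p and miR-339-5p share their first 20 bases and differ by U21A (base 1 is at the 5′ end, and the base of the earlier name is given first).
miR-7: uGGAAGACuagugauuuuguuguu
miR-185: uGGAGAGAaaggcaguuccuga
miR-504: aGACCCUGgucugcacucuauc
miR-20a: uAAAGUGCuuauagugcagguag
miR-17-5p: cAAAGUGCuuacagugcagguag
miR-4334-3p: uCCCUGUCcuccaggagcucu
miR-339-5p: uCCCUGUCcuccaggagcucac
miR-486: uCCUGUACugagcugccccgagu

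Totals were 2858652, 3137757, 759210 and 950751 reads in Pietrain libraries 1 to 4 and 558144, 1482602, 1993009 and 2627753 in Large White libraries 1 to 4. The exact two-sided permutation test over the libraries gave p = 0.743 for total reads, 0.743 for the number of sequences with reads, 0.6 for mean read length, 0.657 for the share of the most abundant miRNA and 1 for the number of names with reads (adjusted p over these 5 measures 0.929, and 1 for names), where 4 against 4 can reach 0.0286 at the lowest. The tables named 217 miRNAs in Pietrain and 224 in Large White, of which 206 stood in both and were compared. The library labelled Large White thick 1 stood against its label in the authors' own material. A DESeq2 refit of thin against thick Large White fat matched the log2 fold change of the authors' deposited table within 0.01 for 59 of 2701 sequences (2.18%) as labelled, and for 2701 of 2701 once the libraries labelled thick 1 and thin 1 were exchanged. Results are given as labelled, with values without that library or with the exchange beside the named miRNAs whose unadjusted p they moved across 0.05.

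No miRNA passed the test between the breeds. The edgeR quasi-likelihood test called 0 of 161 miRNAs (0%) at an adjusted p under 0.05, and the smallest adjusted p was 0.990. At an unadjusted p under 0.05 it found 4 (2.48%), with miR-20a and miR-4334-3p higher in Pietrain (1.24%) and miR-7 and miR-185 lower (1.24%). DESeq2 called 0 of 160 (0%) and had 4 below 0.05 before adjustment, and limma-voom called 0 and had 5. With the library labelled Large White thin 1 in place of thick 1, edgeR called 0 of 165 and 14 had an unadjusted p under 0.05, and without Large White thick 1 it called 0 with 7. The median log2 fold change, Pietrain minus Large White as everywhere below, was -0.03 over all 161 miRNAs, with 74 above 0 and 87 below.

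How far the data bound a difference can be read from the intervals. The 95% interval of the log2 fold change lay within 1 of 0, which is a change of less than a doubling or halving, for 88 of the 161 miRNAs. Of the 125 miRNAs with reads in all 8 libraries, 115 had a log2 fold change under 0.5 in size. Libraries of a breed also differed among themselves. The median absolute log2 difference between 2 libraries, over those 125 miRNAs, was 0.22 to 0.45 in the 6 Pietrain pairs, 0.28 to 0.44 in the 6 Large White pairs and 0.23 to 0.43 in the 16 pairs of unlike breed. In the plot of the breed difference against abundance the points close in on 0 as the miRNAs become more abundant, apart from miRNAs listed at 0 in some library.

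**Figure D1:**
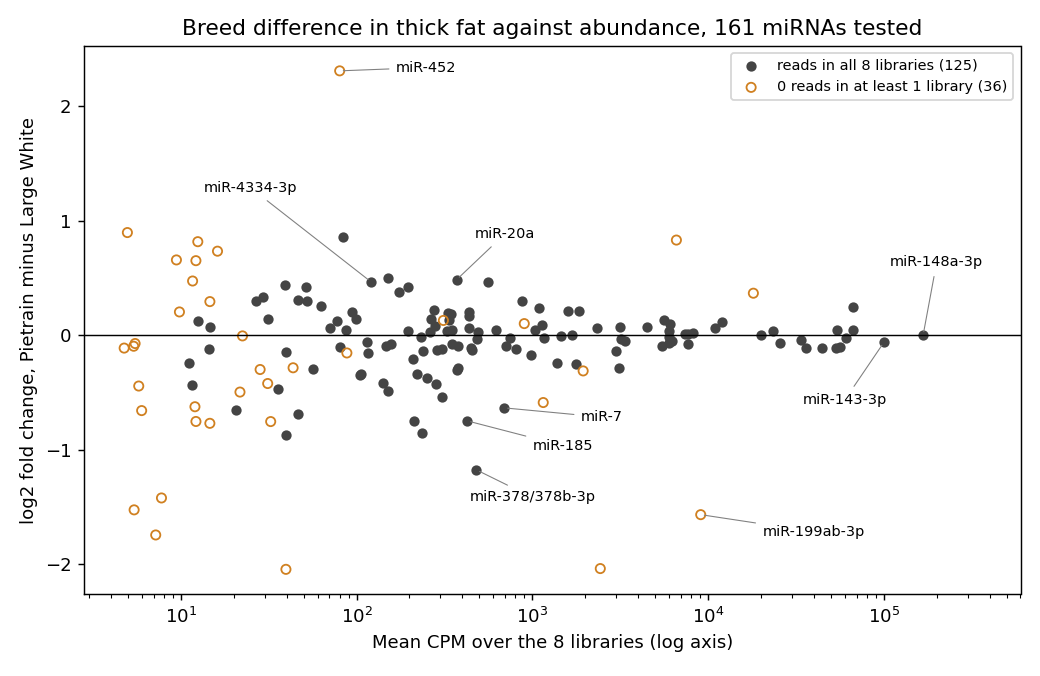
Each point is 1 of the 161 miRNAs tested, with its mean CPM over the 8 libraries on a log axis and its log2 fold change, Pietrain minus Large White, on the vertical axis. Filled points had reads in all 8 libraries (125) and open points were at 0 in at least 1 (36), and 7 of the 8 miRNAs with a log2 fold change of 1 or more in size are open.

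miR-7 had the smallest p-value. This miRNA is best known from neurons and endocrine cells, where the circular RNA Cdr1as binds it. Its level was 573, 599, 553 and 442 CPM in the Pietrain libraries, where CPM is the read count scaled to library size with TMM factors, and 906, 1008, 907 and 542 in the Large White libraries. Large White library 4 lay within the Pietrain range and the other Large White libraries lay above it. The means were 542 ± 69.3 and 841 ± 205 CPM (SD, n = 4 each), a log2 fold change of -0.63 ± 0.22 (SE) with an edgeR p of 0.0175 and an adjusted p of 0.990. Without Large White thick 1 its unadjusted edgeR p was 0.0531.

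miR-185, which has been linked to repression of cholesterol synthesis and uptake, had 232, 349.6, 266 and 426 CPM in Pietrain and 471, 604, 669.9 and 392.1 in Large White. The ranges overlapped through Pietrain library 4 and Large White library 4. Its log2 fold change was -0.75 ± 0.26 (SE), with a 95% interval of -1.33 to -0.16 and an edgeR p of 0.0183 (adjusted p = 0.990). miR-504, a repressor of the tumour suppressor p53, was at 152, 142, 84.7 and 124 CPM in Pietrain and at 202, 169, 179 and 159 in Large White. These groups did not overlap, although the log2 fold change of -0.49 ± 0.21 (SE) missed an unadjusted edgeR p of 0.05 at 0.0504. With the exchange of the Large White libraries that p was 0.0426. Groups without overlap were found for 4 of the 161 miRNAs (2.48%), with Pietrain below for miR-504, miR-148b-5p and miR-1271-5p and above for miR-452. miR-1271-5p was named for this pattern after its values were seen.

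The other 7 miRNAs of smallest p on the lower side were miR-139-3p, miR-2320-5p, miR-95, let-7e, miR-450a, miR-450c-5p and miR-148b-5p, with log2 fold changes from -0.87 to -0.28 and none below an unadjusted p of 0.05. With the exchange 5 of them were below it by edgeR, let-7e at an unadjusted p of 0.0170, miR-139-3p at 0.0195, miR-95 at 0.0226, miR-450a at 0.0271 and miR-2320-5p at 0.0369, and no adjusted p of any miRNA was under 0.465. Without Large White thick 1 only miR-95 of the 7 was below 0.05, at an unadjusted edgeR p of 0.0250. let-7e, a member of the differentiation-linked let-7 family, was the most abundant of them, at 2935, 3155, 2289 and 2882 CPM in Pietrain and 3092, 3482, 3681 and 3448 in Large White. Only Pietrain library 2 reached into the Large White range. miR-450a and miR-450c-5p cannot be fully separated, because the leading sequence of miR-450a is identical to the first 20 bases of that of miR-450c-5p. Their log2 fold changes were -0.54 ± 0.29 and -0.43 ± 0.26 (SE).

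miR-20a led the miRNAs with higher values in Pietrain. It belongs to the miR-17-92 cluster, which drives proliferation and the clonal expansion that precedes adipocyte differentiation in culture. Its level was 322, 424, 504 and 482 CPM in Pietrain and 330.2, 279.6, 346 and 282 in Large White, and only Pietrain library 1 fell into the Large White range. The log2 fold change was 0.48 ± 0.19 (SE), with an interval of 0.05 to 0.91 and an edgeR p of 0.0316 (adjusted p = 0.990). miR-17-5p, of the same cluster, was at 177, 241, 233 and 251 CPM in Pietrain and at 135, 165, 189.8 and 184 in Large White. Here too only Pietrain library 1 overlapped, at a log2 fold change of 0.42 ± 0.19 (SE). With the exchange of the Large White libraries it was 0.25.

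The level of miR-4334-3p was 114, 134, 156 and 157 CPM in Pietrain and 107, 81.2, 97.6 and 119.6 in Large White. Only Large White library 4 reached the Pietrain range. The log2 fold change was 0.47 ± 0.19 (SE), with an edgeR p of 0.0398 and an adjusted p of 0.990. Its near-identical partner miR-339-5p was at 148, 173, 230.3 and 233 CPM in Pietrain and at 208, 110.0, 130.3 and 158 in Large White, and reads that end before base 21 could belong to either, so the split between them is uncertain. The log2 fold change of miR-339-5p was 0.61 with the exchange and 0.58 without Large White thick 1, at unadjusted edgeR p-values of 0.0164 and 0.0312.

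Next on the higher side came miRNAs of blood and others. miR-486, listed here as a red blood cell marker, was at 147, 172, 201 and 184 CPM in Pietrain and at 77.8, 118, 122 and 179 in Large White, where only library 4 overlapped. Which cells its values came from was not tested. miR-451, the erythroid miRNA that matures without Dicer, was at 381, 674, 526 and 1016 CPM in Pietrain and at 477, 413, 396 and 599 in Large White, with wide overlap. Their log2 fold changes were 0.50 ± 0.26 and 0.46 ± 0.30 (SE), and neither reached an unadjusted p of 0.05. miR-16, miR-10b and miR-532-5p had log2 fold changes of 0.20 ± 0.17, 0.24 ± 0.18 and 0.21 ± 0.14 (SE). miR-452 was at 164, 85.5, 212 and 77.4 CPM in Pietrain and at 0, 0, 40.1 and 63.0 in Large White, so its fitted log2 fold change of 2.31 ± 1.30 (SE) rests on libraries listed at 0. The direction of each of the 20 named miRNAs, the 10 of smallest p on either side, was kept in every alternative that fitted it. These were 17 for miR-452 and 18 for each of the others, with the main setting included. The alternatives refit mostly the same libraries from which the 20 were chosen, so the kept directions are not a separate check.

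**Figure D2:**
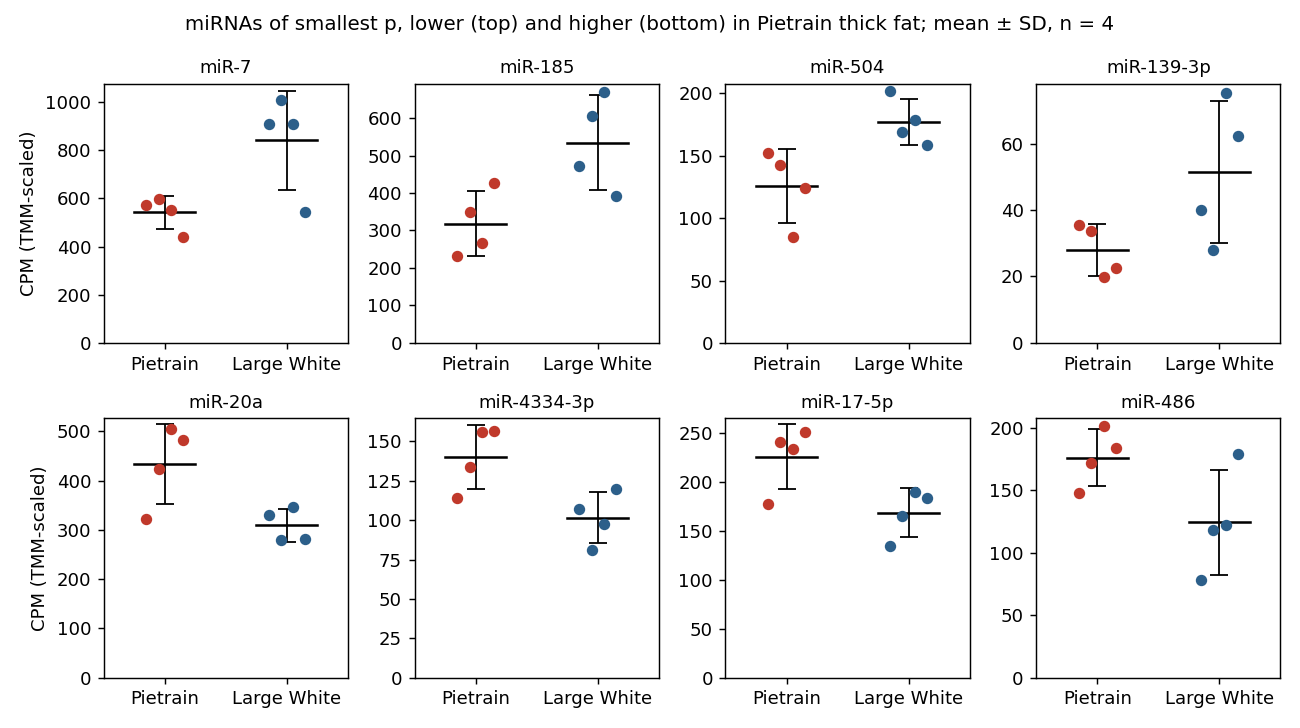
CPM in each thick fat library for the 4 miRNAs of smallest p that were lower in Pietrain (top) and the 4 that were higher (bottom), with a line at the mean and bars of 1 SD (n = 4). A reader should see that single libraries, such as Large White library 4 for miR-7 and Pietrain library 1 for miR-20a, bridge the groups in every panel but that of miR-504.

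Summed by seed, miRNAs were tested as families that can bind the same sites. The edgeR quasi-likelihood test called 0 of 127 families (0%), and 3 had an unadjusted p under 0.05 (2.36%), with a smallest adjusted p of 0.988. The smallest was the family with seed AAAGUGC, made of miR-20a and miR-17-5p with small amounts of miR-106a and miR-20b. It was at 554, 671, 719 and 711 CPM in Pietrain and at 469, 429, 546 and 464 in Large White, so every Pietrain library lay above every Large White library. Groups were without overlap in 2 of the 127 families (1.57%), this family and that of miR-452. The means were 664 ± 76.1 and 477 ± 49.1 CPM (SD, n = 4), a log2 fold change of 0.48 ± 0.15 (SE) with an edgeR p of 0.0126 and an adjusted p of 0.988. The families of miR-185 and miR-7, each with that miRNA alone, were the other 2. The family of miR-339-5p and miR-4334-3p had a log2 fold change of 0.42 ± 0.21, and that of miR-10a-5p and miR-10b, miRNAs of the HOX gene clusters, 0.32 ± 0.17 (SE).

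The 6 most abundant miRNAs differed little in mean between the breeds. They held 51.7% of scaled reads and the 20 most abundant 87.3%. Other abundant miRNAs were less bounded, with log2 fold changes of 0.37 ± 1.80 for miR-21 and -1.57 ± 3.52 (SE) for miR-199ab-3p, both listed at 0 in some library. miR-148a-3p, an adipocyte miRNA that promotes adipogenesis and represses the LDL receptor, was at 128778, 157937, 199157 and 184199 CPM in Pietrain and at 144034, 185289.7, 118856 and 221772 in Large White. Its log2 fold change was 0.00 ± 0.23 (SE) with an interval of -0.52 to 0.52. The intervals were -0.16 to 0.65 for miR-10b, -0.40 to 0.49 for miR-26a, which promotes adipocyte differentiation, -0.52 to 0.46 for miR-99a and -0.41 to 0.20 for let-7a.

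miR-143-3p was the exception in its spread. This miRNA of smooth muscle and stroma also promotes adipocyte differentiation. It was at 143039, 98389, 90038 and 60589.9 CPM in Pietrain and at 218312, 68365, 63312 and 59525 in Large White, with Large White library 1 far above the other 7. The log2 fold change was -0.06 ± 0.48 (SE) over all libraries, 0.66 without Large White library 1 and 0.58 with the exchange. The same library had the highest level of miR-145-5p, the partner of miR-143 in its cluster, at 11446 CPM against 3737 to 7677 in the others. It is the library whose label did not match the authors' deposited table. Pietrain library 1 was the next highest for both miRNAs, and miR-100, named after its values were seen, was at 37745 CPM there and at 35410.2 in Large White library 1 against 16265 to 24394 elsewhere. Whether tissue composition moved with these 2 libraries was not tested.

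The lists of miRNAs with known roles in fat were close to the median of all miRNAs, -0.03. Of 13 adipogenesis promoters tested, 0 passed the edgeR test and 1, miR-20a, had an unadjusted p under 0.05, with 10 above 0, 3 below and a median log2 fold change of 0.06. It was 0.27 without Large White library 1. The 14 adipogenesis repressors split evenly, 7 above and 7 below (median -0.03), with miR-27b-3p, a repressor of PPARG, at 20006 ± 2383 CPM in Pietrain and 19979 ± 6345 in Large White (SD, n = 4). The 10 miRNAs of thermogenic adipocytes had a median of 0.01, with miR-378 at 0.06 ± 0.22 and miR-365-3p at 0.05 ± 0.25 (SE). The 8 miRNAs of insulin signalling and glucose uptake had a median of 0.05, and the 6 of lipid and cholesterol metabolism -0.06. In each of these lists edgeR called 0.

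The let-7 guide strands and miR-98 had a median of -0.10, with 2 of 8 above 0, and the interval of every member lay within 1 of 0. In the miR-17-92 cluster 3 of the 4 tested were above 0, with a median of 0.24, but its most abundant member miR-92a was at 6106 ± 378.1 CPM in Pietrain and 6342 ± 1127 in Large White (SD, n = 4). miR-19b of the cluster was at 71.6 ± 9.34 and 69.0 ± 10.9 CPM. The DLK1-DIO3 imprinted cluster, a large set of miRNAs expressed from the maternal copy, had a median of -0.14 over 5 tested, with miR-381-3p at -0.14 ± 0.34 and miR-127 at -0.25 ± 0.32 (SE). The miR-30 family had a median of -0.07 over 3.

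Markers of other cell types were read in the same way. The 6 red blood cell miRNAs had a median of 0.33, with 4 above 0, and their summed level was 7680.4 to 7995 CPM in Pietrain and 6086 to 8714 in Large White. Of its defining markers, miR-451 and miR-486 were present in all 8 libraries. The name miR-144 was listed only in the Large White table, with 9 reads in 1 thick library. The name miR-144-5p was listed only in the Pietrain table, with 0 reads in thick fat. miR-20a and miR-92a are in this list too, and the part of blood in the values of miR-20a was not tested. The 4 leukocyte miRNAs tested had a median of 0.13. Together with miR-142-5p, which was not tested, they summed to 3739 to 4853 CPM in Pietrain and 3631 to 4550.0 in Large White. Among their defining markers miR-142-3p had 0 reads in these libraries and miR-223 had 15 and 14 reads, each in 1 Large White library, while miR-142-5p had reads in Pietrain library 3 and Large White library 1 alone, 167 in all. Endothelial miRNAs had a median of -0.07 over 6, led by miR-126-3p at 42738 ± 5154 and 46309.6 ± 10574 CPM (SD, n = 4). The 11 miRNAs of smooth muscle and stroma had a median of -0.08 and summed to 70847 to 157787 CPM in Pietrain and 73937 to 267175 in Large White. These sums lack miR-199ab-3p and miR-199b-5p in Pietrain libraries 1, 2 and 4 and in Large White library 3, where both were listed at 0.

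Skeletal muscle miRNAs were low. The 3 tested had a median of -0.34, and that median was -0.51 without Pietrain library 3 and 0.51 without Large White library 4. That last library held miR-133a-3p, a muscle miRNA, at 668 CPM and miR-206 at 315, against 87.0 to 281 and 69.4 to 199 in the other 7. miR-1 was not among the miRNAs tested. The plot of the breed difference by list shows the medians beside their members.

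**Figure D3:**
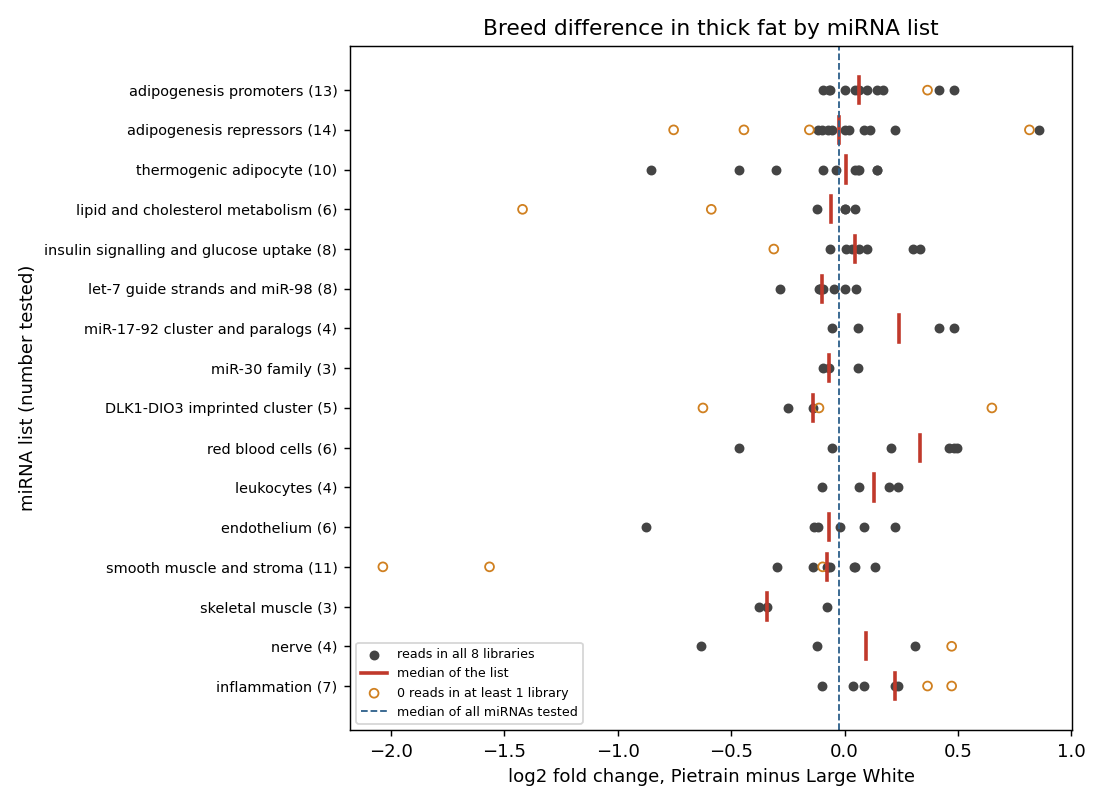
Each row is a list of miRNAs with the number tested, and each point is a member's log2 fold change, Pietrain minus Large White, with open points for members at 0 in at least 1 library. Red bars mark each list's median and the dashed line marks the median of all 161 miRNAs, -0.03, and no member of any list passed the test.

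Several abundant miRNAs were listed at 0 in single libraries. No library holds a count from 1 to 5, so a 0 can stand for up to 5 reads of each sequence and no limit is set on it. Over the 8 libraries 17 miRNAs were at 0 where at least 100 reads were expected from their level elsewhere, with 2 to 10 such miRNAs per library, and 12 of them were tested. miR-199ab-3p, a stromal miRNA, was at 18362 CPM in Pietrain library 3 and at 0 in the other 3, and at 20107, 20737, 0 and 13507 in Large White. miR-199b-5p was at 0 in the same 4 libraries. miR-21 was at 0 in Large White library 3 alone and at 16959.5 to 25422 CPM in the other 7, miR-10a-5p was at 0 in Large White library 1 alone, and miR-320 was at 0 in Pietrain library 2 alone. Of the 8 miRNAs with a log2 fold change of 1 or more in size, 7 had a 0 in some library.

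The eighth was miR-378/378b-3p, named after its values were seen. It was at 655, 494, 18.5 and 9.28 CPM in Pietrain and at 778, 576, 563 and 752 in Large White, so Pietrain libraries 3 and 4 stood apart from the other 6. Under this name 17 and 18 sequences had reads in Pietrain libraries 1 and 2, 1 in each of Pietrain libraries 3 and 4, and 8 to 16 in the Large White libraries. Shown with the seed in capitals, because the first was at 0 in the libraries that stood apart, are the most abundant sequence of the name, which is identical to the first 18 bases of miR-378, a 22-base sequence with reads in all 4 Pietrain libraries, and the leading sequence of miR-378.
miR-378/378b-3p, 18 bases: aCUGGACUuggagucaga
miR-378/378b-3p, 22 bases: aCUGGACUuggagucagaagac
miR-378: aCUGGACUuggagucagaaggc
The 18-base sequence had 415 and 409 reads in Pietrain libraries 1 and 2, 0 in Pietrain libraries 3 and 4, and 84, 211, 345 and 555 in Large White. The 22-base sequence had reads in all 4 Pietrain libraries, at 14, 19, 14 and 9. miR-378 itself was at 9821, 7882, 14372 and 12456 CPM in Pietrain and at 12821, 8689, 9473 and 11618 in Large White, with overlapping groups. miR-429, an epithelial miRNA, was at 0 in Pietrain library 3. That library held 343 reads listed as miR-200b, a name with 0 reads in the other Pietrain thick libraries.

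The 2 arms of a hairpin leave the same precursor, so their ratio within a library does not depend on library scaling. limma called 0 of 24 hairpins (0%) on the log2 ratio of the 5p to the 3p arm, and 1 had an unadjusted p under 0.05 (4.17%), with a smallest adjusted p of 0.358. That hairpin was miR-296, whose value rests on arms listed at 0. In both breeds the 5p arm led in 7 hairpins and the 3p arm in 17. Among hairpins with reads of both arms in all 8 libraries, miR-139 had a log2 ratio of 5.38 ± 0.59 in Pietrain and 4.56 ± 0.57 in Large White (SD, n = 4), a difference of 0.82 ± 0.39 (SE). For miR-140 the ratios were -4.06 ± 0.23 and -3.86 ± 0.15 (SD, n = 4), a difference of -0.20 ± 0.14 (SE).

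The breed difference was also measured in thin fat, from 3 Pietrain and 4 Large White other libraries. In a fit of all 15 libraries edgeR called 0 of 182 miRNAs (0%) for a breed difference that varied with fat class, and 5 had an unadjusted p under 0.05 (2.75%), with a smallest adjusted p of 0.676. DESeq2 called 2, miR-142-5p and miR-500, both listed at 0 in several libraries. Of the 20 miRNAs made up of the 10 of smallest p on either side in thick fat, 19 had the same direction in thin fat. With the Large White exchange it was 18 of the 20. The exchange puts Large White thick 1, which had a part in choosing the 20, into the thin group. The count of 18 therefore does not come from other libraries alone. Over all 125 miRNAs with reads in every thick library the direction was the same for 86 (68.8%), and for 81 with the exchange. The breeds kept their separate tables in thin fat, so this repeat does not separate breed from handling.

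miR-20a, miR-486 and miR-504 had larger differences in thin than in thick fat. miR-20a was at 567 ± 159.7 CPM in Pietrain thin fat (SD, n = 3) and 326 ± 42.8 in Large White thin fat (SD, n = 4), a log2 fold change of 0.80 ± 0.19 (SE) with an adjusted edgeR p of 0.111. For miR-486 the thin fat difference was 1.24 ± 0.33 and for miR-504 it was -0.71 ± 0.21 (SE), against 0.49 ± 0.31 and -0.47 ± 0.19 in thick fat in the same fit. None of these differences between fat classes reached an unadjusted p of 0.05. The exception in direction was miR-7, which was at 956 ± 162 CPM in Pietrain thin fat (SD, n = 3) and 829 ± 112 in Large White thin fat (SD, n = 4). Its log2 fold change was -0.62 ± 0.19 in thick and 0.21 ± 0.20 in thin fat (SE), and the difference between them was -0.83 ± 0.28 with an edgeR p of 0.0111 and an adjusted p of 0.676. miR-140-3p, a miRNA of cartilage and mesenchymal cells and not 1 of those 20, had 0.08 ± 0.16 in thick and 0.83 ± 0.17 in thin fat (SE). In this fit edgeR called 0 miRNAs for the breed difference in thin fat.

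**Figure D4:**
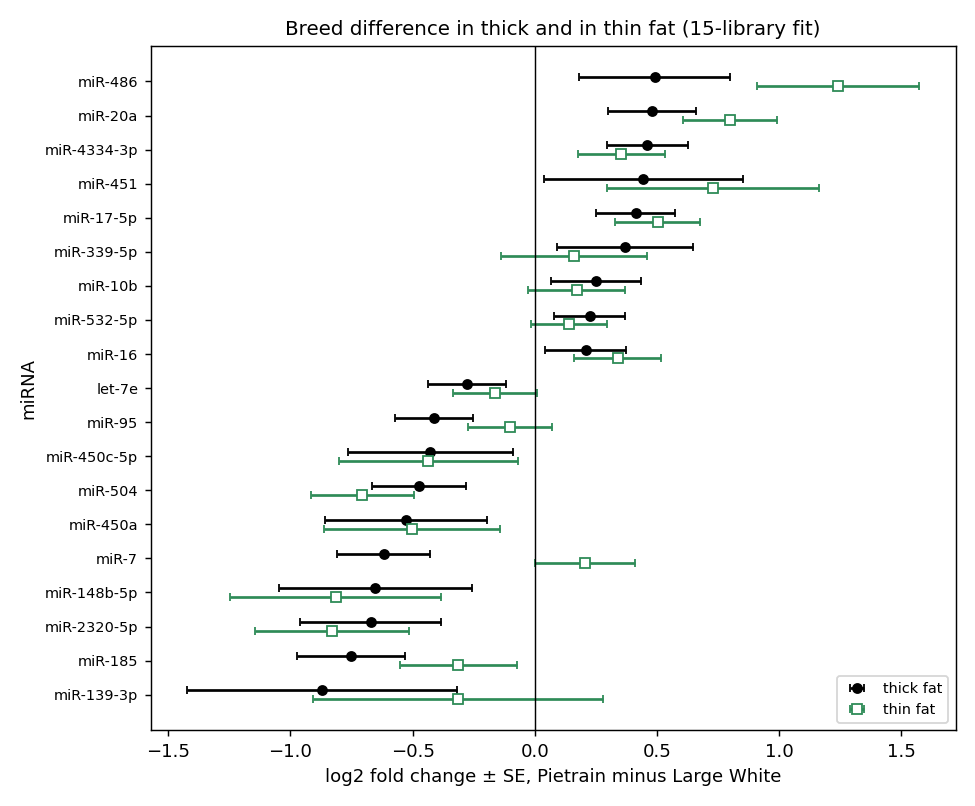
Log2 fold change, Pietrain minus Large White, with bars of 1 SE, in thick fat (filled circles) and in thin fat (open squares) for the 10 miRNAs of smallest p on either side in thick fat, from the fit of 15 libraries. miR-452, which was at 0 in some libraries, is left out, and miR-7 is the miRNA whose squares and circles lie on opposite sides of 0.

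Below the level of the miRNA name, the breeds differed in a set of rare sequences. Tested as deposited, 22 of 2718 sequences passed the edgeR test (0.809%), all 22 higher in Pietrain and from 14 miRNAs. Only sequences listed in both breed tables could enter, 5737 of the 7000 named ones in Pietrain and of the 6756 in Large White. Sequences listed for 1 breed alone were not tested. Every called sequence began with G where the leading sequence of its miRNA began with another base, a kind that made up 72 of the sequences tested. Among the sequences tested, 0 of any other kind were called. The sequence with the smallest adjusted p was a form of miR-148a-3p, printed with its changed base in capitals below the leading sequence with its seed in capitals, and the change is U1G.
miR-148a-3p: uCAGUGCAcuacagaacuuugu
miR-148a-3p with U1G: Gcagugcacuacagaacuuugu
The changed sequence had 2552, 3673, 1148 and 1216 reads in Pietrain and 15, 34, 44 and 94 in Large White, a log2 fold change of 5.49 with an adjusted edgeR p of 3.8e-06. As a share of reads that carried the rest of the leading sequence, it was 0.868, 0.877, 0.915 and 0.810% in Pietrain and 0.0278, 0.0162, 0.0184 and 0.0196% in Large White. Over 20 abundant miRNAs whose leading sequence begins with U, the median share of U1G was 0.765, 0.793, 0.774 and 0.724% in Pietrain and 0, 0, 0 and 0.00923% in Large White, with no overlap. The median share of U1C was 0.291 to 0.313% in Pietrain and 0.310 to 0.333% in Large White, and that of U1A 0.0664 to 0.0922% and 0 to 0.0898%, so these ranges overlapped. Counts of 1 to 5 are not listed, so a share of 0, for U1G or U1A, can stand for up to 5 reads. In Large White 51 of the 78 single U1G shares were at 0, against 4 of 80 in Pietrain. The Large White medians of 0 therefore do not show that the form was absent. All 4 in Pietrain were of miR-30a-5p, whose shares are also among the 51 in Large White. This miRNA had shares of 0 for U1A and U1C too in every library. Its values of 0 may have another source than unlisted low counts, which was not tested. The seed, at bases 2 to 8, is the same in both forms, and U1G reached at most 1.18% of such reads in any of the 20 miRNAs. Breed and the handling of the tables cannot be told apart here either.

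**Figure D5:**
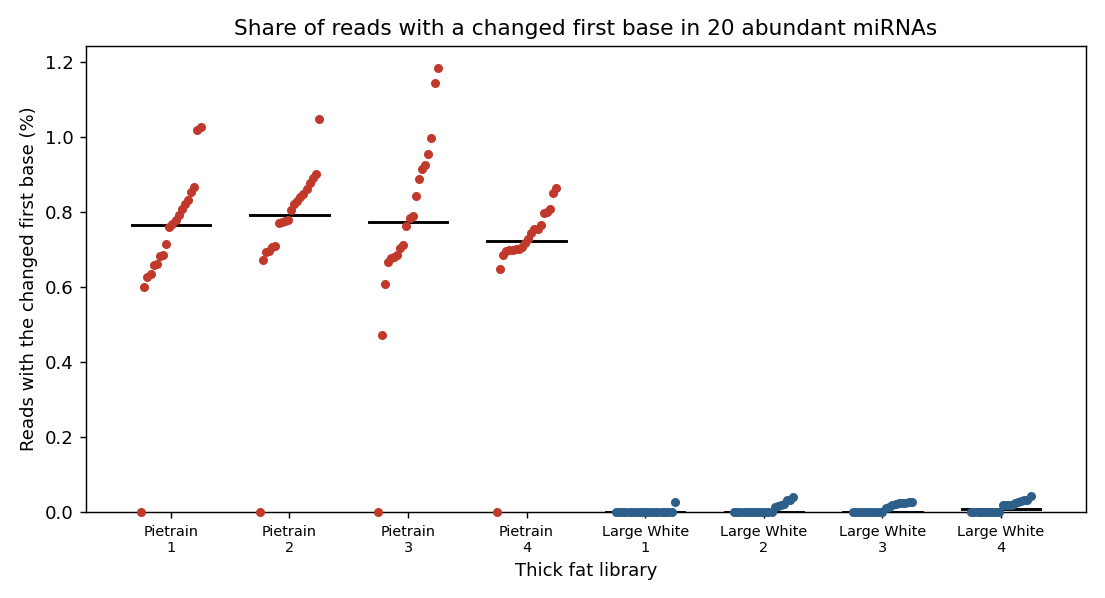
Each point is 1 of 20 abundant miRNAs, and the vertical axis is the percent of its reads, among those with the rest of its leading sequence, that carried the changed first base U1G, with a black line at the median of each thick fat library. The 4 Pietrain medians sit between 0.724 and 0.793% and the 4 Large White medians at or near 0, where counts of 1 to 5 are not listed. miR-30a-5p is at 0 in every library by this measure, which counts only forms of its leading sequence. It was at 0 for U1A and U1C as well. Another sequence of that name that begins with G was among the 22 called, with 190 reads in Pietrain and 0 in Large White. That sequence also differs from the leading sequence of the name past the first base.

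The leading sequences were mostly the same in both breeds. Of the 125 miRNAs with reads in all 8 libraries, 119 had the same leading sequence in both breeds and 107 the same in every library, and the leading sequence held a median of 51.2% of a miRNA's reads. The 2 sequences with the most reads under the name let-7c are shown because its level includes both, with the seed and base 17 in capitals.
let-7c, first sequence: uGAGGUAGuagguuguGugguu
let-7c, second sequence: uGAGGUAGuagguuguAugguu
The first held 152742 reads (28.3% of the name) and is known as let-7b in human. It has G at base 17, where the second, with 126328 reads (23.4%), has A. Among reads that show this base, G made up 55.0, 58.7, 62.0 and 63.0% in Pietrain and 59.2, 50.0, 58.8 and 60.1% in Large White, and the ranges overlapped.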

How the data were processed

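Small RNA reads (single-end, 36 cycles) of 8 thick fat libraries were compared, with 7 thin fat libraries for the test across fat classes. The authors deposited a table per breed of raw read counts per sequence and miRNA name, with no normalization. Per the submitters' processing notes, bcl2fastq, FastQC, DESeq2 and the assembly Sscrofa10.2 were used. Trimmer, aligner, miRNA annotation release and tool versions are not given in the sources used here, and no coordinates are printed. The authors' deposited Large White comparison gives, per the file headers, a mean signal per sequence and a log2 fold change, and it was used only to check labels, over sequences with a mean signal of 10 or more.

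Counts were summed per miRNA name, names in both tables were joined, and unnamed sequences were left out. The main test was edgeR 4.0.16 (quasi-likelihood, robust, TMM, default filter with a minimum count of 10) in R 4.3.3, with Benjamini-Hochberg adjustment over all names tested and a threshold of 0.05. Arm ratios, with 0.5 added to each count, were tested with limma 3.58.1. Alternatives were other scalings and filters, DESeq2 1.42.0, limma-voom, single sequences, the Large White exchange and leaving out each library. SE is the log2 fold change over the root of F, and intervals are 95%. The fits were tested on simulated data. No 2 replicates agreed within sampling noise (lowest chi-square per degree of freedom 270.2 over 12 pairs). The spread behind each p-value is that between libraries, and reads carry no molecular identifiers.

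Named miRNAs were the 10 of smallest p per direction, the 6 most abundant, the 3 families and hairpins of smallest p per direction, and up to 4 members per list. The comparison, lists and rules were chosen with earlier results of these data known. Lists not described in the text had these medians: nerve 0.09 over 4, inflammation 0.22 over 7, liver and gut -0.23 over 2, epithelium 0.10 over 1, and hypoxia and stress 0.37 over 1.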

Additional observations from a re-analysis of the deposited data

Results flagged for a closer look

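Among 60 groups of 4 libraries examined, 3 held a library far from the others, and chance flags about 1 in 20 groups. miR-532-5p was at 1373 CPM in Large White library 3, below 1514 to 1521 in the other Large White libraries. miR-95 was at 151 CPM in Pietrain library 2, above 109 to 115 in the other Pietrain libraries. miR-143-3p was at 218312 CPM in the library labelled Large White thick 1, above 59525 to 68365 in the other Large White libraries. Names listed in only 1 breed's table entered no comparison, and in thick fat 2 of them reached 100 reads in a library. miR-200b had 343 reads in Pietrain library 3, and miR-345-3p had 145 reads in Large White library 3.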

How the results depend on the processing

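Every change of scaling and filter, limma-voom and DESeq2 left 0 miRNAs called. edgeR called 0 to 1 when each library was left out in turn, with 1 without Pietrain thick 2 (miR-296-3p) and 1 without Large White thick 2 (miR-500), both miRNAs listed at 0 in some libraries. Seed families gave 0 to 1 in the same way. Single sequences gave 22 calls, and the interaction gave 2 with DESeq2. The cause of each was not tested. Unadjusted counts ranged from 2 with library totals only to 14 with the exchange of Large White libraries.

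Abundant miRNAs with log2 fold changes near 0 changed sign. miR-148a-3p was -0.077 with upper quartile scaling, -0.013 with limma-voom, -0.028 on miRNAs without a 0, -0.0055 with the exchange and -0.12 to 0.21 with each library left out. miR-143-3p was 0.0067 with library totals, 0.046 with no filter, 0.0030 with a filter of 10 CPM, 0.14 with limma-voom, 0.58 with the exchange and -0.33 to 0.66 with each library left out. miR-99a was 0.043 with no filter, 0.0014 with the filter of 10 CPM, 0.077 with the exchange and -0.23 to 0.13 with each library left out. miR-26a was -0.032 with upper quartile scaling and -0.014 to 0.27 with each library left out, and let-7a was -0.16 to 0.051. The cause was not tested.

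With each library left out, the breed difference ran from -142506 to 650343 in total reads, from -255 to 776 in sequences with reads, from -0.0048 to 0.033 nt in mean read length and from -2.26 to 0.24 percentage points in the share of the most abundant miRNA. No paired analysis was possible because the labels give the 2 breeds no shared replicate numbers. Libraries of 558144 to 3137757 reads and the minimum count of 6 limit what can be said of rare miRNAs.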
